A study of Mus musculus with 6 samples.

Results

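The vascular smooth muscle cells of the postnatal mouse cerebral cortex were described in 1 control and 1 Nodal iPCKO single-cell library. Cells were chosen on their own transcripts. A barcode of at least 1500 unique molecular identifiers (UMIs, each counting 1 captured mRNA molecule) and at most 17% mitochondrial UMIs was a member if at least 3 of 6 smooth muscle genes had at least 2 UMIs each. The 6 genes were Acta2, Myh11, Cnn1, Tagln, Lmod1 and Mylk. A member also had at most 2 UMIs in total over Kcnj8, Atp13a5, Cldn5, Tie1, Aqp4 and P2ry12, genes of pericytes, endothelial cells, astrocytes and microglia. This gave 235 members, 101 in the control library and 134 in the iPCKO library, of 7765 cortex barcodes and of 67751 barcodes in all 6 libraries of the series that passed the UMI and mitochondrial limits.

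The study removed secreted factors from mural cells and profiled lung or cortex. For the cortex, mice aged 12 postnatal days were either Nodal lox/lox (control) or Nodal iPCKO, in which a tamoxifen-inducible Cre recombinase driven by a Pdgfrb(BAC)-CreERT2 transgene deletes loxP-flanked Nodal. All received 50 µg of tamoxifen daily on postnatal days 1 to 3. Cortices of 2 mice per genotype were freed of meninges and pooled into 1 library before dissociation, and sexes were not given for the pools. The driver acts in pericytes and in smooth muscle cells, so it does not separate the 2 kinds of mural cell. The control label names no Cre transgene, and an effect of carrying it cannot be told apart from the loss of Nodal. With 1 library per genotype there is no replicate and no test. Intervals below are exact 95% intervals that cover counting error only, and they do not measure differences between mice.

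Vascular smooth muscle cells wrap arteries, arterioles and, more thinly, veins, and set vessel diameter through calcium-driven contraction of actin and myosin. Pericytes are the mural cells of capillaries and carry much less of the contractile apparatus. Mural cells of the brain also secrete basement membrane and elastic matrix, respond to nitric oxide through cyclic GMP, and depend on Notch3 and platelet-derived growth factor signalling. Nodal is a ligand of the TGF-beta superfamily that acts through activin receptors and SMAD proteins.

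Members held a total of 922173 UMIs in the control library and 998422 in the iPCKO library. The median member had 8624 UMIs (range 4213 to 19121) and 3273 genes in the control, against 6938.5 UMIs (range 1681 to 18771) and 2775.5 genes in iPCKO. Median mitochondrial shares were 8.99% and 9.05%. Members made up 3.35% (interval 2.74 to 4.06) of 3015 passing control barcodes and 2.82% (2.37 to 3.33) of 4750 passing iPCKO barcodes. Of the mural cells, counted as members plus pericytes chosen in the same way, they were 32.3% (27.1 to 37.8) and 30.2% (25.9 to 34.7). Both pairs of intervals overlapped. The libraries shared 21 barcodes of at least 1500 UMIs, of which 1 was a member in both. Expression was scaled as CPM, the UMIs of a gene per 1000000 UMIs of the members in that library.

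The genes that chose the members are given as a description. Acta2, which encodes smooth muscle actin, was at 7604 CPM in the control and 6882 CPM in iPCKO, with 4 to 307 UMIs (median 59) and 1 to 208 UMIs (median 42.5) per cell. Tagln, an actin-binding protein, was at 3757 and 4130 CPM, and Mylk, the myosin light chain kinase, at 2254 and 1933 CPM. Myh11, the smooth muscle myosin heavy chain, was at 1286 and 1259 CPM and reached 2 UMIs in 90.1% and 85.8% of members. These 4 genes marked nearly every member, whereas the remaining pair did not. Cnn1, a calponin that restrains myosin, had a UMI in 21.8% of control and 23.1% of iPCKO members (92.2 and 79.1 CPM). Lmod1, an actin filament nucleator, had a UMI in 52.5% and 53.7% (96.5 and 153 CPM). The log2 ratio of iPCKO over control was 0.67 (0.28 to 1.06) for Lmod1, 0.14 (0.07 to 0.20) for Tagln, -0.14 (-0.19 to -0.10) for Acta2 and -0.22 (-0.31 to -0.13) for Mylk, and the intervals of Myh11 and Cnn1 included 0.

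**Figure D1:**
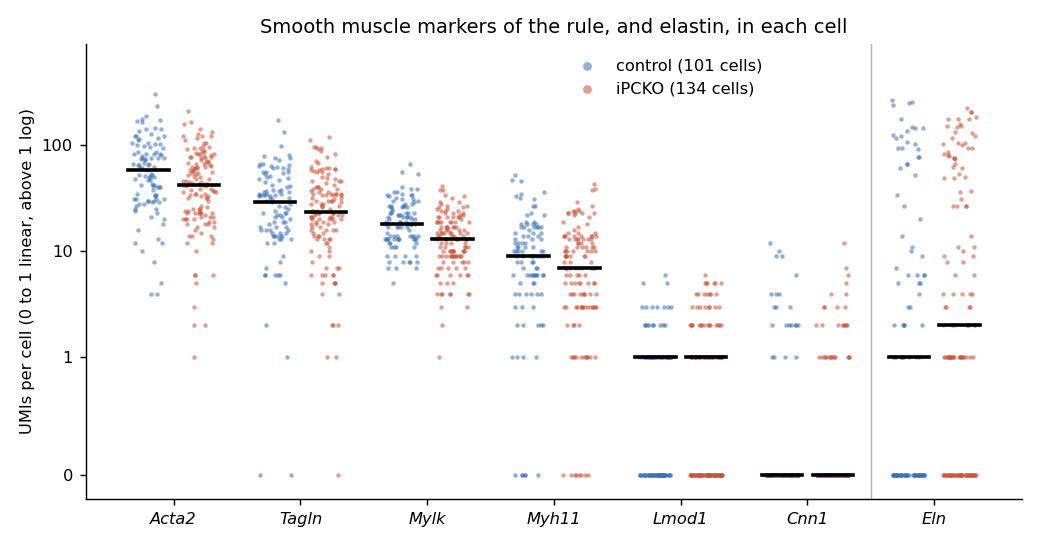
UMIs per cell (vertical axis, linear from 0 to 1 and logarithmic above) of the 6 marker genes of the rule and of Eln in every member, with 101 control cells in blue, 134 iPCKO cells in red and a black bar at each median. Acta2, Tagln, Mylk and Myh11 were present in nearly every cell, Cnn1 was at 0 in most cells, and Eln split the cells, with up to 265 UMIs in some and 0 in others.

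Smooth muscle genes outside the rule were also abundant, such as Myl9 at 3057 and 3176 CPM, and the edge of the rule lay on a gradient. Members with 3, 4, 5 and 6 of the markers numbered 12, 62, 18 and 9 in the control and 23, 67, 34 and 10 in iPCKO, and Acta2 ran from 2764 CPM at 3 markers to 15120 CPM at 6 in the control, and from 3511 to 12816 CPM in iPCKO. Just outside, 6 control and 13 iPCKO barcodes with 2 markers had Acta2 at 350.0 and 740 CPM. A further 21 control and 32 iPCKO barcodes had enough markers and more than 2 but at most 10 exclusion UMIs. Their Acta2 was 3149 and 2304 CPM and their Kcnj8, a potassium channel subunit of pericytes, 293 and 320 CPM. Inside the rule Kcnj8 kept 26 and 25 UMIs over all members, Atp13a5 15 and 23, Cldn5 2 and 9, Tie1 0 and 4, Aqp4 2 and 0, and P2ry12 5 and 1.

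Nodal itself was nearly absent from these cells. The control members held 2 Nodal UMIs in 2 of 101 cells (1.98%, 0.241 to 6.97), and the iPCKO members held 0 in 134 cells, where a limit of 3 counts leaves room for Nodal UMIs in 2.24% of cells (exact upper bound 2.72%). After thinning each cell to 3000 UMIs the control share was 0.990%. In pericytes of the same libraries Nodal had 152 UMIs in 88 of 212 control cells (41.5%) and 0 in 310 iPCKO cells, which allows up to 0.968% by the limit of 3 counts (exact upper bound 1.18%). In microglia, which should lack the gene, 1 of 892 control cells (0.112%) and 3 of 1418 iPCKO cells (0.212%) had a UMI, at median depths of 6187 and 6437.5 UMIs. The interval of the control members overlapped that of microglia (0.00284 to 0.623). At this depth neither the presence of Nodal in control smooth muscle cells nor a loss of it was detectable, and the targeted gene could be checked in pericytes only.

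Members were also set beside pericytes. The 14 genes with the highest ratio of members over pericytes are a description, because contractile genes chose the cells. Eln, which encodes tropoelastin of the elastic lamina (chromosome 5, 134731445 to 134776322, GRCm39), was at 3497 and 4386 CPM in members and 16.8 and 17.5 CPM in pericytes. Crispld2, a secreted protein, was at 551 and 855 CPM in members against 3.36 and 5.48 CPM in pericytes. Cav1, the main protein of caveolae, was at 666 and 580 CPM against 10.9 and 4.38 CPM, and Lama5, a laminin chain of basement membrane, at 259 and 241 CPM against 0.840 and 4.11 CPM. All 4 were present at substantial levels in both libraries.

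Other genes of that set were receptors and regulators. Or51e1, an olfactory-type G protein-coupled receptor, was at 226 and 84.1 CPM in members and had 0 UMIs in 212 control and 310 iPCKO pericytes, where the limit of 3 counts leaves room for UMIs in 1.42% and 0.968% of cells (exact upper bounds 1.72% and 1.18%). Htr1b, a serotonin receptor, was at 101 and 61.1 CPM in members and 0 and 1.10 CPM in pericytes. Rcan2, an inhibitor of calcineurin, was at 234 and 217 CPM against 0.840 and 0.548 CPM. The set also held Actg2, enteric smooth muscle actin, whose coding sequence is so close to that of Acta2 that shared reads are uncertain, and by Pi15, Ntrk3, Pln, Ltbp1 and Pdlim3. Angpt1, which encodes the Tie2 ligand angiopoietin 1, was not in the set but was also higher in members, at 151 and 186 CPM against 55.5 and 47.1 CPM in pericytes. Angpt1 UMIs were found in 58.4% and 64.9% of members (32.7% and 40.6% at 3000 UMIs per cell). They were found in 36.1% and 33.3% of fibroblasts, 30.7% and 31.3% of astrocytes and 19.3% and 18.7% of pericytes. The shares were 1.26% and 1.22% in endothelial cells and 0.897% and 0.494% in microglia.

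Members were not uniform, and they differed widely in elastin. The division by Eln was chosen after the values were seen and serves as a description. Cells with at least 10 Eln UMIs, called elastin-rich here, numbered 29 of 101 in the control (28.7%, 20.1 to 38.6) and 46 of 134 in iPCKO (34.3%, 26.3 to 43.0). Cells with no Eln UMI numbered 45 (44.6%, 34.7 to 54.8) and 44 (32.8%, 24.97 to 41.5). The other 27 and 44 cells had 1 to 9 Eln UMIs. Depth was similar across the groups within each library, with medians of 9283, 9299 and 8056 UMIs in control cells with many, few and no Eln UMIs, and 6967.5, 6881 and 7216 UMIs in iPCKO. At 3000 UMIs per cell, 43.6% of control and 54.9% of iPCKO members kept an Eln UMI. In pericytes, at median depths of 5323 and 5412 UMIs, 4.72% and 4.52% of cells had an Eln UMI, in microglia 1.68% and 2.33%, in endothelial cells 15.8% and 15.7%, in astrocytes 37.4% and 41.1%, and in fibroblasts, which make elastin, 78.3% and 84.9%. The intervals of the elastin-rich and elastin-free shares overlapped between libraries.

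In both libraries the elastin-rich cells carried more of the contractile markers and less Rgs5. Acta2 was at 11929 CPM in elastin-rich and 5174 CPM in elastin-free control cells, and at 10938 and 4594 CPM in iPCKO. Myh11 was at 1999 against 793 CPM and 2049 against 761 CPM. Cnn1 was at 261 and 220 CPM in elastin-rich cells and had no UMI in the 45 control and 44 iPCKO elastin-free cells. Mylk differed little, at 2623 against 2071 CPM and 2238 against 1785 CPM. Rgs5, a regulator of G protein signalling that is abundant in mural cells, went the other way, at 7883 against 28957 CPM in the control and 7136 against 29518 CPM in iPCKO.

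Among 5686 genes that neither chose the cells nor split them, 238 (4.19%) had a counting interval above 0 for elastin-rich over elastin-free cells in both libraries and 312 (5.49%) had one below 0 in both. The genes higher in elastin-rich cells included insulin-like growth factor binding proteins and further matrix. Igfbp2 had no UMI in elastin-free cells of either library and 274 and 251 CPM in elastin-rich cells. Igfbp4 was at 21.2 against 418 CPM in the control and 25.6 against 708 CPM in iPCKO. Col8a1, a short-chain collagen of vessel walls, was at 119 against 1049 CPM and 195 against 1160 CPM, and Thbs1, which encodes thrombospondin 1, at 34.4 against 302 CPM and 41.6 against 488 CPM. Actg2 was at 10.6 against 456 CPM and 25.6 against 296 CPM. Pi15, Dpysl3, Ptgis, Ndrg1, Col15a1, Tinagl1, Stc2, Sorbs2 and Crispld2 completed the 14 ranked first. The ranking used the interval bound nearest to 0 over both libraries, not the ratio itself.

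The genes lower in elastin-rich cells included several that also mark pericytes. Casq2, the calcium store protein calsequestrin, was at 415 CPM in elastin-free and 10.3 CPM in elastin-rich control cells, and at 352 and 8.47 CPM in iPCKO. Vtn, the adhesive protein vitronectin, was at 1986 and 309 CPM in the control and 2370 and 381 CPM in iPCKO. Higd1b, a mitochondrial protein used as a mural marker, was at 399 and 65.2 CPM and at 422 and 73.4 CPM. Notch3 differed by less, at 2290 against 1450 CPM and 2342 against 1476 CPM. Car4, Art3, Slc6a20a, Begain, Ptn, Pde8b, Trib2, Anpep, Adamts16, Gm49394 and Tnfrsf21 were also among the 14 ranked first on this side by the same bound. Casq2 and Vtn were too. Each of the 11 counted pericyte markers had its lower value in elastin-rich cells in both libraries, down to Cspg4 at 770 and 717 CPM in the control. The share of all genes that were lower by direction alone was not counted. Among fibroblast markers Col1a2 was at 1555 and 1817 CPM in elastin-free and elastin-rich control cells and Ogn at 130 and 106 CPM. Col1a2 and Ogn are 2 of the 5 counted fibroblast markers, and the others are not given by elastin group. The genes that define the fibroblast class here are Col1a1, Dcn, Lum, Pdgfra, Slc6a13 and Ogn. Of these, Dcn, Lum and Pdgfra were near 0 over all members, whereas Ogn was not. Members of the control and iPCKO libraries had 4 and 0 Dcn UMIs, 0 and 0 Lum UMIs and 0 and 2 Pdgfra UMIs. Col1a1 is given below with the collagens, and Slc6a13 is not given. The part of these other cells in the elastin groups was not tested.

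**Figure D2:**
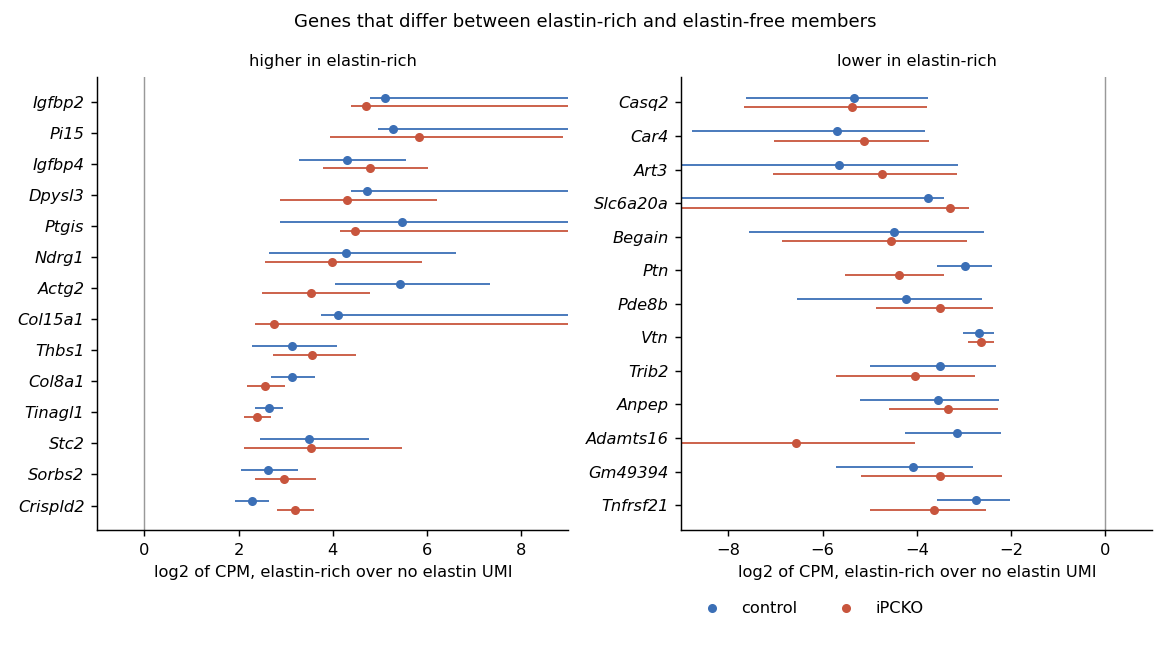
Log2 ratio of CPM (horizontal axis) of elastin-rich members over members with no Eln UMI, control in blue and iPCKO in red, with exact 95% counting intervals as lines. Genes are among the 14 ranked first in each direction by the interval bound nearest to 0 over both libraries (14 higher and 13 lower shown). Where a group had no UMI the point is a lower bound set against 3 UMIs and the line runs off the axis. The choice of genes by both libraries fixes the shared side of 0, and examples are Igfbp4 at 4.31 and 4.79 and Vtn at -2.69 and -2.64.

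Control and iPCKO members were then compared over 5694 genes with at least 50 UMIs in the members of both libraries together. The median log2 ratio of iPCKO over control was -0.05, with quartiles at -0.27 and 0.17. A ratio of at least 2 was found for 32 genes (0.562%) and of at most its inverse for 61 genes (1.07%). The counting interval lay above 0 for 384 genes (6.74%) and below 0 for 499 (8.76%). These shares are the background against which the counts of gene groups below should be read. A counting interval narrows as UMIs rise, so a group of abundant genes can exceed the interval shares with small ratios. The shares were not matched for depth. The 14 named genes in each direction were those with the largest log2 ratio by the interval bound nearer to 0, among genes with a UMI in at least 20% of the members of the library where they were higher.

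**Figure D3:**
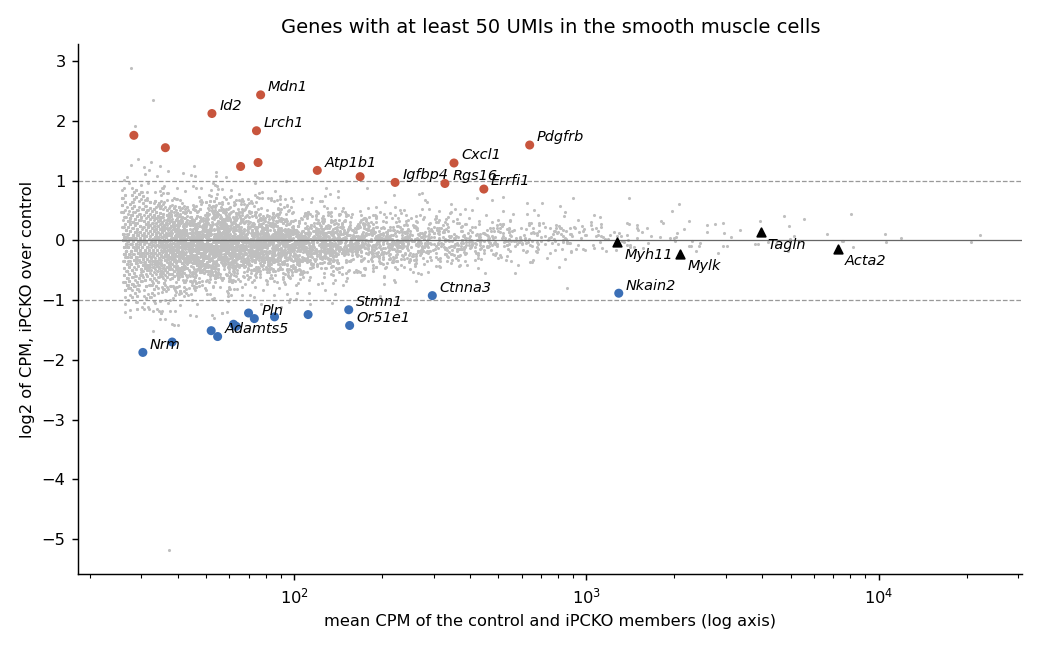
Log2 ratio of CPM, iPCKO over control members (vertical axis), against the mean CPM of both (horizontal axis, logarithmic) for 5694 genes in grey, with named higher genes in red, named lower genes in blue and 4 marker genes of the rule as black triangles. Dashed lines mark 2-fold ratios. Pdgfrb at 1.60 and Nkain2 at -0.88 stood out among abundant genes, while Acta2 at -0.14 and Myh11 at -0.03 lay near 0.

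Pdgfrb, which encodes the platelet-derived growth factor receptor beta of mural cells and whose promoter drives the Cre transgene, was the most abundant named gene on the higher side. It was at 318 CPM in control and 962 CPM in iPCKO members, a log2 ratio of 1.60 (1.41 to 1.79), with a UMI in 90 of 101 and 131 of 134 cells. At 3000 UMIs per cell, 64.4% and 88.0% of members kept a Pdgfrb UMI. The excess was found in other classes too. Pericytes had 882 and 2201 CPM, and microglia, which do not make the receptor, had 2.78 and 209 CPM. In microglia the share of cells with a UMI was 1.12% and 68.9%. Barcodes of 20 to 200 UMIs, taken as empty, also differed, at 76.1 and 278 CPM. Transcripts of the transgene and of the Pdgfrb locus cannot be told apart in these counts.

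The other higher genes included regulators of transcription, signalling and leukocyte recruitment. Cxcl1, a neutrophil chemokine (chromosome 5, 91039094 to 91040974, GRCm39), was at 204 and 501 CPM (1.30, 1.05 to 1.55), in 42 control and 63 iPCKO cells with at most 18 and 52 UMIs per cell. It was also higher in pericytes (1.82) and endothelial cells (1.17). Igfbp4 was at 150 and 293 CPM (0.97, 0.67 to 1.27). Within the elastin-rich cells, where most of it lies, the log2 ratio was 0.76 (0.44 to 1.08). Errfi1, a feedback inhibitor of the epidermal growth factor receptor, was at 317 and 575 CPM (0.86, 0.65 to 1.07). Its log2 ratio was 1.15 in elastin-rich cells, 0.12 in cells with few and 0.18 in cells with no Eln UMI.

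Rgs16, which speeds the turn-off of G protein alpha subunits, was at 223 and 433 CPM (0.95, 0.71 to 1.20) and was higher in all 3 elastin groups, by 1.36, 0.73 and 0.79. Atp1b1, a sodium pump beta subunit, was at 73.7 and 166 CPM (1.17, 0.76 to 1.60), with 110 and 313 CPM in elastin-rich cells. Hopx, a homeodomain protein that does not bind DNA, was at 109 and 227 CPM (1.07, 0.72 to 1.42). These 3 were spread over many cells, with no member holding more than 23 UMIs of any. Rasl11b, a small GTPase, was at 43.4 and 107 CPM, Arrdc3, an arrestin-domain adaptor, at 18.4 and 54.1 CPM, and Egr2, an immediate-early zinc finger factor, at 39.0 and 92.1 CPM.

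Some of the largest ratios rested on few cells. Mdn1, a large ATPase of ribosome assembly, was at 24.4 and 129 CPM (2.44, 1.78 to 3.16), but 5 iPCKO cells held 62.8% of its UMIs. Id2, an inhibitor of helix-loop-helix factors, was at 19.5 and 85.1 CPM (2.12), and 1 iPCKO cell held 20 of its 85 UMIs. Lrch1, a leucine-rich repeat protein, was at 32.5 and 116 CPM (1.84), with 57.7% of its iPCKO UMIs in 1 cell. Without the top cell of each library its ratio was 0.69, with an interval that included 0. With up to 10 exclusion UMIs allowed the ratios were 1.25 for Id2 and 0.49 for Lrch1. Gm47283, an unnamed gene annotated on chromosome Y, was at 13.01 and 43.6 CPM (1.76) and was higher by 1.09 to 1.96 in the other 5 cell classes as well. Barcodes taken as empty held more than the members of Gm47283 (110 and 267 CPM), Id2 (257 and 306 CPM), Lrch1 (208 and 203 CPM) and Atp1b1 (226 and 295 CPM). They had 62.7 and 83.2 CPM of Mdn1. The part of free RNA in these values was not tested.

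On the lower side the most characteristic gene was Or51e1 (chromosome 7, 102351422 to 102361271, GRCm39), the receptor without a UMI in pericytes. It was at 226 CPM in control and 84.1 CPM in iPCKO members (-1.42, -1.81 to -1.05), with a UMI in 59 of 101 and 35 of 134 cells. At 3000 UMIs per cell, 32.7% (23.7 to 42.7) and 18.0% (11.9 to 25.6) of members kept a UMI, and these intervals overlapped. The gene was lower in all 3 elastin groups, at 168 and 53.6 CPM in elastin-rich cells, 257 and 103 CPM in cells with few and 249 and 99.2 CPM in cells with no Eln UMI. Microglia held 2 UMIs in 892 control cells and 0 in 1418 iPCKO cells.

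Pln, which encodes phospholamban, the brake on the calcium pump of the sarcoplasmic reticulum, was at 104 and 42.1 CPM (-1.31, -1.87 to -0.77). It lay mainly in elastin-rich cells, where it was at 226 and 79.0 CPM (-1.52, -2.21 to -0.86). Adamts5, a protease of matrix proteoglycans, was at 82.4 and 27.0 CPM (-1.61, -2.30 to -0.96) and was lower in elastin-rich cells (-1.76) and in cells with few Eln UMIs (-2.46). Scn3a, a sodium channel subunit, was at 92.2 and 34.6 CPM (-1.44, -2.05 to -0.85), and the difference lay in cells with no Eln UMI, at 145 and 24.0 CPM. Pln, Or51e1 and Scn3a had fewer than 50 UMIs in each of the other 5 classes, so no ratio was read there.

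Mamdc2, a secreted matrix protein, was at 90.0 and 34.1 CPM (-1.40), and Cemip2, a cell-surface hyaluronidase, at 97.6 and 42.1 CPM (-1.21). Nrm, an inner nuclear membrane protein, was at 47.7 and 13.02 CPM (-1.87), Smc2, a condensin subunit, at 77.0 and 27.0 CPM (-1.51), and Stmn1, a microtubule destabiliser, at 213 and 94.97 CPM (-1.16). Smc2 and Stmn1 are high in dividing cells, and without the dividing members described below their ratios were -1.97 and -1.38. Sipa1l3 was at 58.1 and 18.4 CPM (-1.70), with 25.6 of its 53.6 control UMIs in 1 cell. Without the top cell of each library its ratio was -0.92, with an interval that included 0. Gm49394, at 157 and 66.6 CPM, held 41.5 of its 144.5 control UMIs in 1 cell, and its ratio of -1.24 went to -0.21, -0.28 and -0.03, with intervals that included 0, when at least 4 markers, no exclusion UMI or up to 10 exclusion UMIs were asked for. Nutf2-ps1, at 122 and 49.6 CPM, is named as a pseudogene of Nutf2, so its reads may be shared with its parent.

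Nkain2, which encodes a protein that interacts with the sodium pump, and Ctnna3, an alpha catenin, were lower without being particular to smooth muscle. Nkain2 was at 1673 and 908 CPM (-0.88, -1.003 to -0.763) and Ctnna3 at 389 and 205 CPM (-0.92, -1.18 to -0.67). Log2 ratios were -0.71 to -0.85 for Nkain2 and -0.68 to -0.91 for Ctnna3 over pericytes, endothelial cells, fibroblasts, astrocytes and microglia. Every class thus had less of both in the iPCKO library. Barcodes taken as empty held more of both than the members and differed in the same direction. They had 2398.5 and 1520 CPM of Nkain2 and 615 and 374 CPM of Ctnna3. The part of free RNA in these values was not tested.

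**Figure D4:**
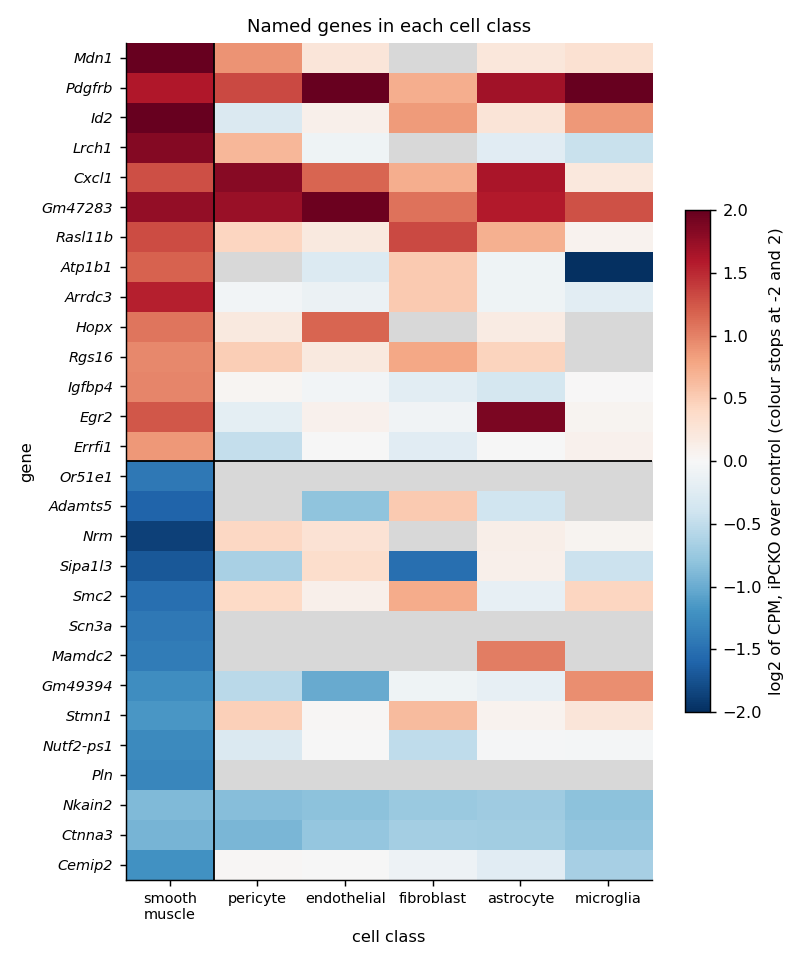
Log2 ratio of CPM, iPCKO over control, of the 28 named genes (rows, the 14 higher above the line and the 14 lower below it) in 6 cell classes (columns), as colour from blue for lower to red for higher, stopping at -2 and 2. Grey cells had fewer than 50 UMIs over both libraries. Nkain2 and Ctnna3 were blue in every column and Pdgfrb and Gm47283 red in every column, whereas Errfi1 was 0.86 in smooth muscle and -0.48 in pericytes.

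The contractile and actin apparatus, for which 37 genes were counted that the rule did not use, differed by small amounts. Its median log2 ratio was 0.05 against -0.05 over all genes, and 0 genes reached a 2-fold ratio. The interval was above 0 for 7 of 37, where 6.74% of all genes were, and below 0 for 2. These genes are abundant, with 37022 and 41074 UMIs in sum, so their intervals leave out 0 at small ratios more readily than those of most genes. The summed level was 40146 and 41139 CPM (0.04, 0.01 to 0.06). Myl9, the regulatory light chain of smooth muscle myosin, was at 3057 and 3176 CPM (0.06, -0.02 to 0.13). Tpm1 and Cald1, which gate myosin access to actin, were at 3946 and 3801 CPM and at 3839 and 3683 CPM. These 3 genes of the contractile machine were at similar levels in both libraries. Members of both libraries had to carry contractile transcripts, so the choice of cells may itself keep such levels similar. The 7 on the higher side were Des, the intermediate filament desmin (136 and 177 CPM, 0.39), Csrp1 (0.28), Rock2 (0.27), Flna (0.25), Tns1 (0.20), Crip1 (0.15) and Myl6 (0.12). Actg2 (-0.46) and Actn1 (-0.13) were below.

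Serum response factor binds the CArG box in the promoters of many contractile and immediate-early genes. In RefSeq promoter windows (build GRCm38.p6) the strict box, a palindrome read on both strands, was present in 535 of 32851 promoters (1.63%). It was found in 5 of 31 contractile genes with a window (16.1%), in 2 of 27 immediate-early genes (7.41%), in 93 of 4350 counted genes (2.14%) and in 0 of the 4 rule markers with a window. A box outside these windows near the gene start, or one that differs by a letter, was not counted. A count of 0 therefore does not show that a gene lacks a box. The windows of the 5 contractile genes, and of Egr2 and Zfp36, which were higher in iPCKO, are shown 5′ to 3′ with the box in capitals. They lie at chr2:156775283-156775332 (plus strand) for Myl9, chr10:128493030-128493079 (minus) for Myl6, chr14:20929151-20929200 (plus) for Vcl, chr10:79988524-79988573 (plus) for Cnn2, chr11:120348556-120348605 (minus) for Actg1, chr10:67537777-67537826 (plus) for Egr2 and chr7:28379257-28379306 (minus) for Zfp36.
Myl9: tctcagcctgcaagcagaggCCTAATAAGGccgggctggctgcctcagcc
Myl6: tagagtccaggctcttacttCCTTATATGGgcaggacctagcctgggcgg
Vcl: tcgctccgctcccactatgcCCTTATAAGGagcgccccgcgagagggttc
Cnn2: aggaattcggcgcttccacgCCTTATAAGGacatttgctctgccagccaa
Actg1: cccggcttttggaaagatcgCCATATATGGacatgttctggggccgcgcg
Egr2: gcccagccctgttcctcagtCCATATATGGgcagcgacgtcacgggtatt
Zfp36: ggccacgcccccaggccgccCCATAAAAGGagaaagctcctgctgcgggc
The 5 contractile genes with a box differed little between libraries. Myl6, an essential light chain of myosin, was at 2826 and 3075 CPM, Vcl, which links actin to adhesions, at 854 and 922 CPM, Cnn2 at 963 and 1028 CPM and Actg1 at 1963 and 2014 CPM. A match of letters is a description and shows no binding.

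Calcium handling was mixed. Of 24 genes counted the median was -0.07, with 3 intervals above and 5 below 0. Atp2b1, the plasma membrane calcium pump, was at 273 and 168 CPM (-0.70, -0.99 to -0.41) and was lower in all 3 elastin groups. Casq2 was at 245 and 162 CPM (-0.59), and Ano1, a calcium-activated chloride channel that depolarises smooth muscle, at 486 and 390 CPM (-0.32). With Pln these made up 4 of the 5 lower genes, and Atp1b2, at 1633 and 1493 CPM (-0.13), was the other. On the higher side were Atp1b1, Rrad (153 and 197 CPM, 0.37), which restrains voltage-gated calcium channels, and Atp2a2, the pump that phospholamban restrains (977 and 1119 CPM, 0.20).

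Receptors and cyclic nucleotide enzymes were near equal. Over 23 genes the median was -0.02, with 2 intervals above and 2 below 0. Rgs5 was at 20842 and 20545 CPM. Gucy1a1 and Gucy1b1, the subunits of the nitric oxide receptor, were at 270.0 and 268 CPM and at 307 and 295 CPM, and Ednra, the endothelin A receptor, at 205 and 205 CPM. These values lie within counting error of each other. Pde5a, which degrades cyclic GMP, was at 241 and 311 CPM (0.37, 0.11 to 0.62), and Rgs16 was the other higher gene. Npr3, the clearance receptor for natriuretic peptides, was at 43.4 and 20.0 CPM (-1.11) and Pde3a at 946 and 827 CPM (-0.19).

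Transcription factors of smooth muscle had a median of -0.04 over 23 genes. Myocd, the serum response factor coactivator that directs the contractile programme, was at 43.4 and 41.1 CPM (-0.08, -0.74 to 0.59), which its 40 and 41 UMIs bound only loosely. Mef2c was at 932 and 685 CPM (-0.44, -0.59 to -0.30) and Mef2d at 137 and 102 CPM (-0.42), while Klf4, which opposes contractile genes, was at 845 and 978 CPM (0.21, 0.07 to 0.35). Mef2c was lower in elastin-rich cells (-0.58) and in cells with few Eln UMIs (-0.71), and in elastin-free cells it was at 928 and 873 CPM.

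Notch genes had a median of 0.02 over 14 genes, with Notch3, the receptor of arterial mural cells, at 1983 and 2054 CPM and its ligand gene Jag1 at 267 and 268 CPM. Hey2, a Notch target, was at 145 and 211 CPM (0.54, 0.22 to 0.86) and Nrarp, a target that dampens the pathway, at 440 and 560 CPM (0.35). Nrip2 was at 339 and 236 CPM (-0.52). The receptor and ligand were thus level, and 2 of 14 genes had an interval above and 1 below 0.

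The Nodal, activin and TGF-beta signalling list held 18 counted genes with a median of 0.09. Smad7, a feedback inhibitor, was at 41.2 and 67.1 CPM (0.70, 0.11 to 1.32), Tgif1, a corepressor, at 55.3 and 85.1 CPM (0.62), and Ltbp1, which tethers latent TGF-beta to matrix, at 145 and 79.1 CPM (-0.88, -1.30 to -0.47). Tgfb2 was at 477 and 496 CPM and Tgfb3 at 164 and 202 CPM (0.31, -0.01 to 0.62). The intracellular mediators Smad2, Smad3 and Smad4 each had an interval that included 0.

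Of 9 TGF-beta target genes counted, 4 had an interval above and 0 below 0, with a median of 0.28. Among them were Tsc22d1 (721 and 956 CPM, 0.41), Junb (1594 and 2005 CPM, 0.33) and Cdkn1a (346 and 420 CPM, 0.28). Ccn2, a matricellular target, was at 159 and 142 CPM (-0.16, -0.51 to 0.18). Junb is also an immediate-early gene, and the list median was 0.20 in pericytes, 0.19 in fibroblasts, 0.38 in astrocytes, -0.02 in endothelial cells and -0.10 in microglia.

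BMP receptors and Id genes had a median of 0.18 over 14 genes, with 4 intervals above and 1 below 0. Id3, a direct BMP target, was at 586 and 784 CPM (0.42, 0.26 to 0.58), Bmpr1a at 197 and 256 CPM (0.38) and Bmpr2 at 83.0 and 113 CPM (0.46). Id4 was at 70.5 and 41.1 CPM (-0.78). With Id2 these are the members whose intervals left out 0. Id1, another target, was at 48.8 and 54.1 CPM (0.15, -0.45 to 0.75).

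Genes of the mural cell surface and of angiogenic signalling had a median of -0.04 over 19 genes. Apart from Pdgfrb, Mcam was the only gene above (1034 and 1157 CPM, 0.16). Cspg4, the proteoglycan NG2 of mural cells, was at 733 and 570 CPM (-0.36, -0.53 to -0.20), Cox4i2 at 119 and 84.1 CPM (-0.50) and Vegfb at 51.0 and 26.0 CPM (-0.97). The gap junction genes Gja4 (589 and 555 CPM) and Gjc1 (717 and 652 CPM) had intervals that included 0.

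Of 14 secreted factors counted, 5 had an interval below 0, where 8.76% of all genes did, 0 had one above and 9 included 0, and the median was -0.37. Mdk, the heparin-binding factor midkine, was at 129 and 63.1 CPM (-1.03, -1.50 to -0.58), and its relative Ptn, pleiotrophin, at 534 and 366 CPM (-0.55, -0.74 to -0.35). Mdk was lower in all 3 elastin groups. Bdnf, a neurotrophin, was at 77.0 and 48.1 CPM (-0.68), Kitl, the ligand of Kit, at 147 and 107 CPM (-0.46) and Sod3, an extracellular superoxide dismutase, at 265 and 198 CPM (-0.42). The list median was -0.33 in endothelial cells, -0.30 in fibroblasts, -0.46 in microglia and -0.12 in pericytes.

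The insulin-like growth factor list had a median of 0.34 over 7 genes, with 3 intervals above 0, 0 below and 4 that included 0. Igfbp7, a secreted protein of vessels, was at 6782 and 9264 CPM (0.45, 0.40 to 0.50) and was higher in all 3 elastin groups, by 0.26, 0.51 and 0.60. Cdkn1c, an imprinted cell cycle inhibitor, was at 205 and 276 CPM (0.43), and Igfbp4 was the third. Pericytes had a list median of 0.30.

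Matrix genes went both ways. Among 14 collagens 4 intervals lay above 0, 2 of them at least 2-fold higher, and 4 below, with a median of 0.02. The basement membrane chains Col4a1 (4537 and 4342 CPM) and Col4a2 (2510 and 2362 CPM) had small ratios of -0.06 and -0.09, with intervals just below 0, and Col1a2 was at 1650 and 2013 CPM (0.29). Col1a1, at 10.8 and 55.1 CPM, held 43 of its 55 iPCKO UMIs in 1 cell. Col14a1 (96.0 and 49.7 CPM, -0.95) and Col15a1 (43.4 and 23.04 CPM, -0.91) were lower.

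Over 32 other matrix genes the median was 0.03, with 5 above and 4 below. Eln was among the higher at 0.33 (0.26 to 0.39), Thbs1 was at 164 and 216 CPM (0.40), and Lox, which cross-links elastin, was at 346 and 283 CPM (-0.29, -0.52 to -0.05). Efemp2, a fibulin of elastic fibres, was at 75.9 and 47.1 CPM (-0.69), and Mgp, an inhibitor of calcification, at 4237 and 4144 CPM (-0.03). The Eln difference moved with the share of elastin-rich cells given above, and its part in the result was not tested. Eln was also higher in endothelial cells (0.85), fibroblasts (0.46) and microglia (0.85), with intervals above 0. In pericytes (0.06) and astrocytes (0.13) the intervals included 0. Barcodes taken as empty had 219 and 293 CPM of Eln. Of 12 integrin and adhesion genes, Fermt2 (0.26) was above and Cdh6, a cadherin, at 153 and 73.1 CPM (-1.06, -1.49 to -0.65), below. Itgb1, the beta 1 integrin subunit, was at 2309 and 2283 CPM.

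Immediate-early genes, which are induced within minutes by growth factors, calcium or tissue dissociation, formed the broadest shift. Of 32 counted, 25 had an interval above 0, where 6.74% of all genes did, and 0 below, with a median of 0.39. Fos was at 4079 and 5433 CPM (0.41, 0.35 to 0.47), Fosb at 1632 and 2291 CPM (0.49), Egr1 at 1060 and 1744 CPM (0.72, 0.60 to 0.83) and Zfp36, which destabilises inflammatory mRNAs, at 1647 and 2512 CPM (0.61). Only Egr2 passed 2-fold. The list median was 0.58 in elastin-rich cells (23 intervals above 0, where 5.41% of all genes had one in these cells), 0.23 in cells with few Eln UMIs (11, against 4.86%) and 0.18 in elastin-free cells (9, against 4.2%), and no test of this difference is possible. Egr1 was at 1776 and 3155 CPM in elastin-rich and 637 and 717 CPM in elastin-free cells.

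The same list had medians of 0.22 in pericytes, 0.04 in endothelial cells, 0.10 in fibroblasts, 0.64 in astrocytes and 0.00 in microglia. Heat shock and chaperone genes, which also respond to dissociation, had a median of -0.03 over 21 genes. Among them the near-identical Hspa1a (222 and 345 CPM, 0.64) and Hspa1b (195 and 280 CPM, 0.52) were higher, with reads that may be shared, and Hsp90b1 (428 and 338 CPM, -0.34) was lower. The part of cell handling in the immediate-early values was not tested.

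**Figure D5:**
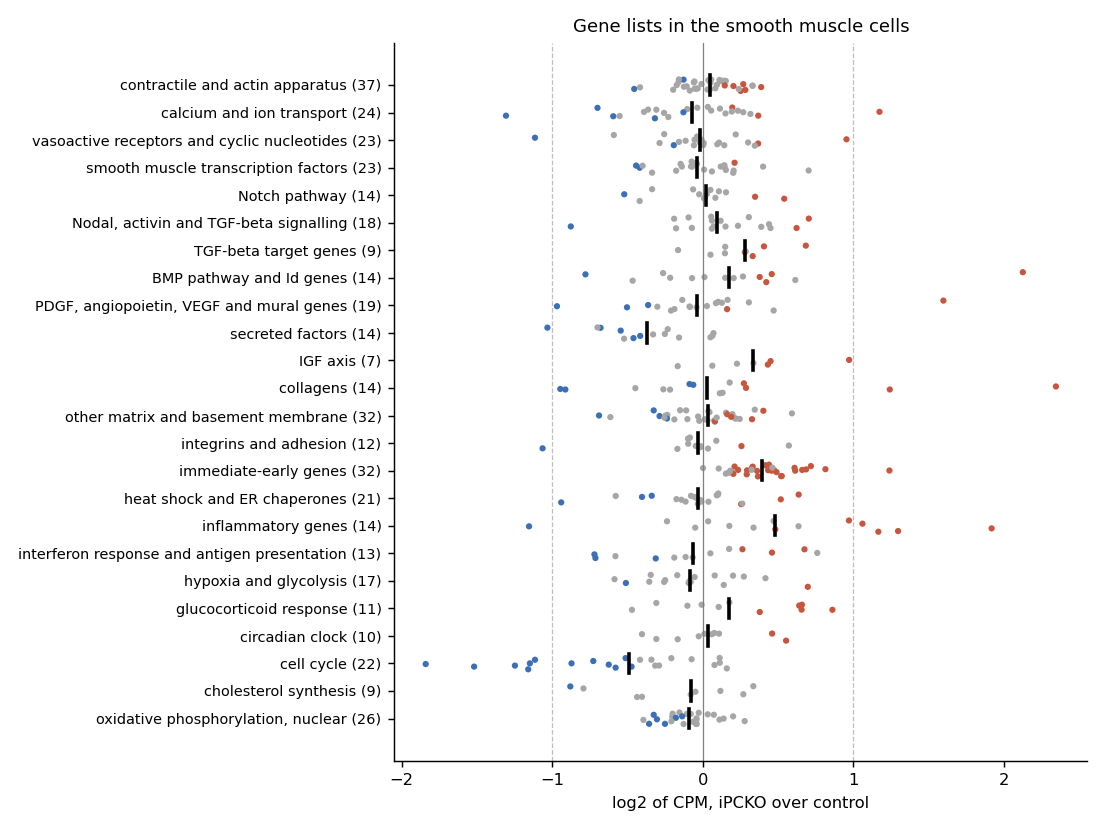
Log2 ratio of CPM, iPCKO over control members (horizontal axis), of each counted gene in 24 gene lists (rows, with the number of genes), with a black bar at each median. Red points have a counting interval above 0, blue points below 0 and grey points include 0. The immediate-early list (median 0.39) lay to the right, the cell cycle (-0.49) and secreted factor (-0.37) lists to the left, and the contractile list (0.05) around 0.

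Inflammatory genes had a median of 0.48 over 14 genes, with 6 intervals above and 1 below 0, and 4 genes were at least 2-fold higher, where 0.562% of all genes were. Ccl19 (40.2 and 17.6 CPM, -1.15) was the 1 gene at least 2-fold lower. Besides Cxcl1 the higher genes were Ccl2, a monocyte chemokine (11.9 and 45.1 CPM, 1.92), Icam1, a leukocyte adhesion molecule (22.8 and 51.1 CPM, 1.17), and Ptgis, prostacyclin synthase (37.9 and 79.1 CPM, 1.06). Nfkbia, the inhibitor of NF-kappa B, was at 706 and 986 CPM (0.48, 0.34 to 0.63) and Tnfaip3, its partner in feedback, at 35.8 and 70.1 CPM (0.97). Il6 was at 66.1 and 56.1 CPM. Ccl2 had a UMI in 5 control and 16 iPCKO cells, and the list median was 0.84 in pericytes, 0.64 in endothelial cells, 0.36 in microglia, 0.27 in astrocytes and -0.11 in fibroblasts.

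Interferon and antigen presentation genes were split, with 3 intervals above and 3 below 0 among 13. Irf1 was at 216 and 344 CPM (0.68), while Bst2 (155 and 94.1 CPM, -0.72) and H2-K1 (57.5 and 35.1 CPM, -0.71) were lower. Of 11 glucocorticoid-responsive genes 5 were above, where 6.74% of all genes were, and 0 below, with a median of 0.18. Among the higher were Txnip (159 and 248 CPM, 0.64), Sgk1 (52.0 and 82.1 CPM, 0.66) and the metallothioneins Mt1 (344 and 447 CPM, 0.38) and Mt2 (0.66). The list median was -0.28 in pericytes, -0.18 in endothelial cells, 0.13 in fibroblasts, -0.01 in astrocytes and -0.31 in microglia. Tsc22d3, a classic target of the receptor, was at 69.4 and 50.1 CPM (-0.47, -1.03 to 0.09).

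Metabolic and clock lists had small medians. Hypoxia and glycolysis genes had a median of -0.09 over 17 genes, with Ndrg1 (0.70) above and Pkm (-0.51) below. Nuclear oxidative phosphorylation genes had a median of -0.09 over 26, with 0 intervals above and 6 below 0, where 8.76% of all genes were below, and a summed level of 7989 and 7322 CPM (-0.13, -0.17 to -0.08), led by Cox8a (964 and 876 CPM) and Cox6c (941 and 831 CPM). Cholesterol synthesis genes had a median of -0.08 over 9, with Sqle below. Of 10 clock genes Bhlhe40 and Cry2 were above and 0 below.

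Cell cycle genes were the lowest list, with a median of -0.49 over 22 genes. Intervals lay above 0 for 0 genes and below 0 for 12, where 8.76% of all genes were below. A ratio at least 2-fold lower was found for 6, where 1.07% of all genes had one. The list median was -1.11 in elastin-rich cells (0 intervals above and 11 below 0) and -0.40 in elastin-free cells (0 and 8). In cells with few Eln UMIs it was 0.09, with 5 intervals below 0 and 9 above, where 4.86% of all genes were above in these cells. Mcm3 (46.6 and 13.02 CPM, -1.84), Mcm5 (48.8 and 17.0 CPM, -1.52) and Mcm6 (73.7 and 31.1 CPM, -1.25), parts of the replicative helicase, led the list, and Pcna was at 253 and 154 CPM (-0.73). Dividing members were few. Those with at least 3 UMIs over 9 proliferation genes numbered 10 of 101 in the control (9.90%, 4.85 to 17.5) and 6 of 134 in iPCKO (4.48%, 1.66 to 9.49), and these cells held 97.4% and 96.5% of the 467 and 372 UMIs of the 9 genes that chose them. A single cell held 213 of them in the control and 168 in iPCKO.

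The intervals of the dividing shares overlapped. Without these 16 cells, which were chosen on genes of the list, 13 of its genes still had 50 UMIs. Their median was -0.15, against -0.42 for the same 13 genes over all members. Pcna was then at 143 and 141 CPM. Stmn1 (66.7 and 25.6 CPM, -1.38), Cdk6 (-0.71) and Tubb5 (-0.34) still had intervals below 0, as did Mcm3 (-1.48) and Mcm5 (-1.30) at under 50 UMIs, and H2az1 (0.38) had one above. In pericytes the shares were 10 of 212 (4.72%) and 22 of 310 (7.10%), and the list median was 0.31. The D-type cyclins Ccnd1 (656 and 623 CPM) and Ccnd2 (1234 and 1302 CPM) had intervals that included 0 in the members.

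Markers of other cells were mixed. Of 12 pericyte markers 11 were counted, with a median of 0.03, and their summed level was 26355 and 26664 CPM, most of it Rgs5, against 43114 and 39666 CPM in pericytes. Slc6a20a (70.5 and 36.1 CPM, -0.97) was lower. Fibroblast markers summed to 2256 and 2708 CPM (0.26, 0.18 to 0.35), of which Col1a2 gave the larger part, and Fmod, at 390 and 402 CPM, was level. Endothelial markers summed to 1283 and 1218 CPM, with a median of -0.09 over the 5 counted. Of these, 1 had an interval above 0, Flt1 at 62.9 and 125 CPM (0.99, 0.53 to 1.47), and 1 had an interval below 0. Cldn5, which the rule limits within each member, kept 2 and 9 UMIs over all members. Astrocyte markers summed to 223 and 192 CPM, microglia markers to 1868 and 1768 CPM, chiefly Cst3, neuron markers to 323 and 307 CPM and red blood cell genes to 4.34 and 12.02 CPM. Oligodendrocyte markers summed to 70.5 and 19.0 CPM (-1.89, -2.71 to -1.13), on 65 and 19 UMIs. The median member had 0 CPM of them in both libraries, while single members reached 2801 CPM in the control and 516 CPM in iPCKO. The ratio thus rested on few cells. Among members with no UMI over the exclusion genes, 39 genes were at least 2-fold higher and 51 lower, of 4139 genes counted. Over all members these were 32 and 61 of 5694. Xist was at 335 and 277 CPM (-0.27, -0.51 to -0.03), and Malat1, a nuclear RNA, at 810 and 661 CPM (-0.29).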

How the data were processed

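Per the labels and the study's methods, cortex cells were captured on BD Rhapsody cartridges (40000 cells loaded per genotype) and reads were mapped by the authors to GRCm39 with STAR 2.7.10a, which shared multi-mapping reads by expectation maximisation and applied no cell filter. The deposited values are therefore estimated counts of UMIs per gene and barcode, of which 9.57% and 9.75% of the entries of the 2 cortex matrices were not whole. The annotation was given as vM33 in the methods and as M26 in the data statement.

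UMIs were summed over the members of each library (Python 3.11.15, numpy 2.4.6, pandas 2.3.3) without rounding. Log2 ratios, their conditional exact intervals and Clopper-Pearson intervals of shares (scipy 1.17.1) used sums rounded to whole UMIs. Genes needed 50 UMIs over both libraries, and 13 symbols that occur on more than 1 row were left out. A group at 0 was set to 3 UMIs for the point value of a ratio, and the exact interval can reach nearer to 0 than that point. The interval code was checked on simulated data. Other classes were cut by rules of the same form. Doublets were not called; an alternative leaves out the 5% of members with the most UMIs. Members and gene lists were chosen with earlier results of these data known. Named were the 14 genes per direction described in the text, the members of 36 lists, the 12 rule genes and the 14 genes highest over pericytes. The lung libraries were not used. Gene positions follow a GENCODE annotation of GRCm39, matched by Ensembl ID for 62 of 62 genes. A few genes that meet these rules are not reported here.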

Additional observations from a re-analysis of the deposited data

Results flagged for a closer look

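Of 411 listed or named genes counted in both mural classes, 18 (4.38%) had counting intervals that left out 0 in opposite directions in smooth muscle cells and pericytes. The difference between the classes was not tested, since each genotype is 1 library.

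Values are log2 ratios of iPCKO over control, smooth muscle cells first and pericytes second. The cell cycle list gave 8 of them, each lower in smooth muscle cells and higher in pericytes. Cenpf was at -1.15 and 0.89, Mcm5 at -1.52 and 0.85, Mcm6 at -1.25 and 0.48, and Pcna at -0.73 and 0.38. Stmn1 was at -1.16 and 0.48, Ube2c at -0.87 and 0.63, and Ccna2 at -0.58 and 0.59. Tubb5, a tubulin, was at -0.47 and 0.26. Without the 10 control and 6 iPCKO dividing members, Cenpf had 0 and 0 UMIs, Ccna2 2 and 2, and Ube2c 1 and 4, the intervals of Mcm6 and Pcna included 0, and those of Stmn1, Mcm5 and Tubb5 stayed below 0. Genes of interferon response and antigen presentation, Bst2 (-0.72 and 0.80) and H2-K1 (-0.71 and 0.79), showed the same pattern, as did Pde3a (-0.19 and 0.45), Ndufa1 (-0.33 and 0.28) and Actn1 (-0.13 and 0.31). The opposite pattern was found for Errfi1 (0.86 and -0.48), Mt1 (0.38 and -0.34), Dusp1 (0.29 and -0.26), Adamts1 (0.19 and -0.25) and Sparc (0.08 and -0.05).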

How the results depend on the processing

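Of 163 comparisons of a count, a list median or a share with an alternative, 7 moved past a set limit and 0 reversed. Counts and shares cannot reverse, and the contractile median was too near 0 to be called reversed. For single named genes 11 of 364 comparisons moved and 0 reversed. These genes were chosen for large ratios, so the absence of reversals says little about stability. The count of genes at least 2-fold higher went from 32 to 149 with a minimum of 20 UMIs (8841 genes) and to 4 with a minimum of 200 UMIs (1653 genes), and that of lower genes from 61 to 318 and 5. Fewer or more genes of low count enter by construction. Requiring no UMI over the exclusion genes left 153 of 235 members, and the share of control members with a Nodal UMI went from 1.98% to 0 there and to 0 with a mitochondrial limit of 10%. The contractile median stayed between 0.02 and 0.09 and the immediate-early median between 0.32 and 0.47 over 15 alternatives. For the contractile median and the counts 3 of these were added after seeing the data, and for the other list medians the choice of the list as a result to follow was itself made after seeing the data. The ranges were -0.54 to -0.15 for the cell cycle (the last without the dividing members), -0.50 to -0.20 for secreted factors, 0.18 to 0.52 for inflammatory genes, 0.21 to 0.32 for TGF-beta targets and 0.21 to 0.43 for the IGF genes. Among named genes, Gm49394 kept its direction but its interval included 0 with at least 4 markers (-0.21), no exclusion UMI (-0.28) or up to 10 exclusion UMIs (-0.03), and so did Lrch1 (0.69) and Sipa1l3 (-0.92) without the top cell of each gene. Cxcl1 went from 1.30 to 0.95 and Cemip2 from -1.21 to -2.12 with no exclusion UMI, Lrch1 to 0.49, Id2 from 2.12 to 1.25 and Rgs16 from 0.95 to 0.70 with up to 10, and Arrdc3 from 1.55 to 2.46 and Igfbp4 from 0.97 to 1.42 with the mitochondrial limit of 10%. The cause was not tested.

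No paired analysis was possible because each genotype is 1 library, which also leaves no replicate to drop. Depth limits genes under 50 UMIs, such as Nodal, to wide intervals. Subtracting free RNA, set at the 2.27% and 2.81% of UMIs that take the exclusion genes together to 0, gave 31 higher and 66 lower genes of 5536 counted. The rule caps those genes, so these shares are low by selection, and Kcnj8 alone would give 77.9% and 69.4%. This subtraction therefore sets no limit on free RNA.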

Other observations

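Single cells dominated some genes that fell outside the named set because too few members held a UMI. They were chosen after their values were seen. C920021L13Rik had the lowest ratio of all 5694 genes, at 72.7 and 2.00 CPM (-5.18), with 62 of its 67 control UMIs in 1 cell. Tex14, an intercellular bridge gene of germ cells, had the highest, at 6.87 and 48.2 CPM (2.89), with 32 of its 48.2 iPCKO UMIs in 1 cell.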
